A study of Mus musculus with 9 samples.

Results

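The genes described here are 36 transcripts that glucocorticoids are known to raise in several tissues, or that carry and shape the hormone's signal, chosen by their symbols from the 54513 genes of the authors' table. The choice was made with earlier results of these data known, so the members' shares beside those of all genes are a description. All 36 were in the table, and all 36 were among the 18690 genes with enough counts to be tested. The label of the set was examined by role: it holds 3 genes of hormone reception and activation (Nr3c1, Nr3c2, Hsd11b1) and target genes for the rest. The samples were mouse tissue labelled as hippocampus, in 3 groups of 3 mice, and every mouse ate a high-fat diet for 12 weeks. In the Trp group this food held extra tryptophan, an essential amino acid, 0.5% of its weight. Mice of the IPA group were gavaged every day with indole-3-propionic acid, a bacterial product of tryptophan, 100 mg per kg. The HFD group had the high-fat diet alone. Mice on ordinary chow are not among the libraries analysed here. The labels give no strain, sex, age, genotype, gavage of a vehicle or hour of sampling, and no hormone level. The columns of the table carry the codes HOB (Trp), HEB (IPA) and WTB (HFD), which the labels pair with the samples without explaining them, so whether the columns differ in diet alone is not settled.

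Glucocorticoids, in mice mainly corticosterone, cross into brain cells and bind the glucocorticoid receptor NR3C1 and the mineralocorticoid receptor NR3C2. The bound receptor moves to the nucleus and sits on paired copies of the hexamer AGAACA in opposite orientation, near or far from the genes it switches on. In the hippocampus, which is rich in both receptors, the targets include a brake on the receptor itself (Fkbp5), kinases and regulators such as Sgk1 and Tsc22d3, genes that shift cells away from glucose use, and the metal-binding metallothioneins, and many of them act in glia and blood vessels as well as in neurons.

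Promoter windows from RefSeq (GRCm38.p6, 250 bases before to 50 after an annotated start) were found for 30 of the 36 members, in 44 windows, since some genes have several starts. They were searched for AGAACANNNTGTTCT, the paired receptor element, which reads the same on both strands. The full letters were present in 3 of 32851 windows of all genes (0.00913%) and in 1 member window, that of Sgk1. With up to 2 mismatches in the 12 fixed bases, the element was in 1.84% of all windows and in 6 of 44 member windows (13.6%), which belong to Sgk1, Sult1a1, Fam107a and Tmem252. Fam107a contributed overlapping windows, so these are not independent. The half-site AGAACA on either strand was about as frequent in member windows (18.2%) as in all windows (19%). Of the members that passed the test described below, Sult1a1 and Fam107a are shown for their near matches and Mt1 for its metal elements, and Sgk1 was added for the full match after that match was seen. In Sult1a1 (chr7:126676369-126676668, minus strand), Fam107a (chr14:8309730-8310029, minus strand, its second window) and Sgk1 (chr10:21993640-21993939, plus strand, a window for 1 of its several starts), capitals mark half-sites and matches to the paired element with up to 2 mismatches.
Sult1a1: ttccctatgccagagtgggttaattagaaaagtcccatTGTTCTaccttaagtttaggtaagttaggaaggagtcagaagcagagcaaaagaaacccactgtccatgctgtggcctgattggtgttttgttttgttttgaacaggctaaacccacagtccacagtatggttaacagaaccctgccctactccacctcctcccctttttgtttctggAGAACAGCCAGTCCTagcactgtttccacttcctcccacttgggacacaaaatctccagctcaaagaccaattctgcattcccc
Fam107a: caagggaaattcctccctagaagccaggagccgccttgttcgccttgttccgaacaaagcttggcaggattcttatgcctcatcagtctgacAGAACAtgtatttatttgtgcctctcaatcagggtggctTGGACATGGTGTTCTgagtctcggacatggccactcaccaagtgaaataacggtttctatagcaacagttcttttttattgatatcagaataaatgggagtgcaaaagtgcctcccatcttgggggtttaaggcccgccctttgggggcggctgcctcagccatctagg
Sgk1: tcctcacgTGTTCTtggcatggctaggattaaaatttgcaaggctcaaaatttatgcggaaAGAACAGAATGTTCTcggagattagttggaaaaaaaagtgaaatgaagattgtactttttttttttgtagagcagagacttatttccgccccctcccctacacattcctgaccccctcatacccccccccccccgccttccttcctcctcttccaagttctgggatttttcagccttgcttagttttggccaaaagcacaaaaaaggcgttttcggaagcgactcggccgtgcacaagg
In Mt1 (chr8:94178839-94179138, plus strand) capitals mark the core of the metal response element, TGCACNC or TGCGCNC, searched on both strands, where the zinc-sensing factor MTF1 is known to bind.
Mt1: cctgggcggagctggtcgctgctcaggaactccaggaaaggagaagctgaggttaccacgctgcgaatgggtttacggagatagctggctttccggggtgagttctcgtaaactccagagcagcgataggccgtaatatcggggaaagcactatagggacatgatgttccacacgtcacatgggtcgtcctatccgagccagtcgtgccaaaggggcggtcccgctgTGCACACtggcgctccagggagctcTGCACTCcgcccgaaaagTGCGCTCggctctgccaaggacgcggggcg
Mt1 and its neighbour Mt2 were the members with 2 or more metal cores in a window, a number reached by 7.11% of all windows. Mt2 had at least 4, as did 0.517% of all windows. The window of Hif3a, the member with the smallest p below, held no paired element with up to 2 mismatches. A match is a match of letters in a short window and not a measured binding site, and windows without one say nothing about elements elsewhere.

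Total counts ran from 40621084 to 50938746 per library, and 23940 to 24947 genes were detected in each. CPM below are the deposited counts scaled to library size with a correction for composition (TMM). FPKM are fragments scaled to library size and to gene length, and levels of different genes are compared on that scale only. All 12 listed markers of hippocampal neurons were above 0 in every library, and their summed level was 464 to 592 CPM in Trp, 500.4 to 536 CPM in IPA and 506 to 690.3 CPM in HFD. Markers of striatal neurons were also present, at 1693 to 2421 CPM in Trp, 2392 to 3228 CPM in IPA and 735 to 2417 CPM in HFD. Blood markers summed to 234 to 383 CPM in Trp, 248 to 399 CPM in IPA and 571 to 2213 CPM in HFD, so every HFD library was above every other library. HFD 3 stood apart with the 2213 CPM of blood markers and with 15760 CPM of oligodendrocyte markers, against 7886 to 10370 CPM in the other 8 libraries. HFD 3 also had the lowest sum of striatal markers (735 CPM) and the highest sum of hippocampal markers (690.3 CPM) of all libraries. Trp 3 stood apart with 41.4 CPM of choroid plexus markers, against 142 to 1452 CPM elsewhere. Each result below is therefore also given without HFD 3 and Trp 3, a choice made with earlier results known, where that changes it. The labels name separate mice, but nothing further on litters, cages or days. In whole tissue, fewer cells of a type and less RNA per cell cannot be told apart.

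Hif3a, Sult1a1, Fam107a and Mt1 rose in the Trp group against the HFD group, by 3.41-fold, 3.06-fold, 1.71-fold and 1.44-fold, and no member fell. These 4 of 36 had an adjusted p under 0.05 (Benjamini-Hochberg over all genes) in edgeR's quasi-likelihood test. Of all genes 0.342% passed, 40 higher and 24 lower. At an unadjusted p under 0.05 there were 18 of 36 members and 2112 of 18690 genes. The log2 fold change was above 0 for 27 of 36 members, against 49.5% of all genes, and its median was 0.44 over the members and -0.0022 over all genes. Every Trp library lay above every HFD library for 16 of 36 members, and for 8.06% of all genes. Every Trp library lay below every HFD library for 1 member, Tmem252, and for 7.43% of all genes. With 1 library left out, the count over all genes moved with that of the members. Without Trp 1, 2 or 3 there were 0, 0 and 8 members, of 22, 13 and 81 genes. Leaving out IPA 1, 2 or 3 gave 2, 1 and 3 members, of 39, 25 and 33 genes. Leaving out HFD 1, 2 or 3 gave 1, 1 and 10 members, of 33, 26 and 323 genes. Without HFD 3 and Trp 3 together, 20 members passed, in a fit where 4.09% of all genes did. These were the 4 above with Fkbp5, Zbtb16, Ddit4, Klf15, Nfkbia, Angptl4, Ucp2, Xdh, Mt2, Cdkn1a, Sesn1, Map3k6, Arrdc2, Net1, Sdc4 and Galnt15, all higher in Trp. Over the members HFD 3 was the highest library of HFD and Trp 3 the lowest of Trp (median log2 deviation 0.0005 and -0.07). Leaving them out thus widens the members' differences from HFD, and counts from that fit are not separate support. Calls of single members below that need HFD 3 or Trp 3 left out are not separate support either.

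In IPA against HFD, 0 of 36 members passed in edgeR's test, where 0.00535% of all genes did. At an unadjusted p under 0.05 there were 15 members and 1946 of all genes, and DESeq2 called 3 members (Hif3a, Xdh and Arrdc2). The log2 fold change was above 0 for 29 of 36 members, against 48.9% of all genes, with a median of 0.33 over the members and -0.0056 over all genes. Every IPA library lay above every HFD library for 16 of 36 members (7.19% of all genes) and below for 2, Tmem252 and Lcn2 (8.01% of all genes). Without HFD 3, Hif3a passed (log2 fold change 1.60, adjusted p = 0.0232), and without HFD 3 and Trp 3 there were 8 that passed (Hif3a, Sult1a1, Fam107a, Fkbp5, Zbtb16, Ddit4, Ucp2 and Arrdc2), where 1.3% of all genes did. In Trp against IPA, 0 of 36 members passed in edgeR's test, as did 0% of all genes. An unadjusted p under 0.05 was found for 7 members and 840 of all genes, and DESeq2 called 1 member, Sult1a1, which also passed without HFD 3 and Trp 3. Every Trp library lay above every IPA library for Sult1a1, Angptl4, Mt1 and Mt2, 4 of 36 (5.61% of all genes), and below for Nr3c1 (5.55% of all genes). The group means were ordered HFD below IPA below Trp for 21 of 36 members (58.3%), as they were for 3518 of 18690 genes (18.8%). Both comparisons with HFD share its 3 libraries, so this order is a description and has no test.

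**Figure D1:**
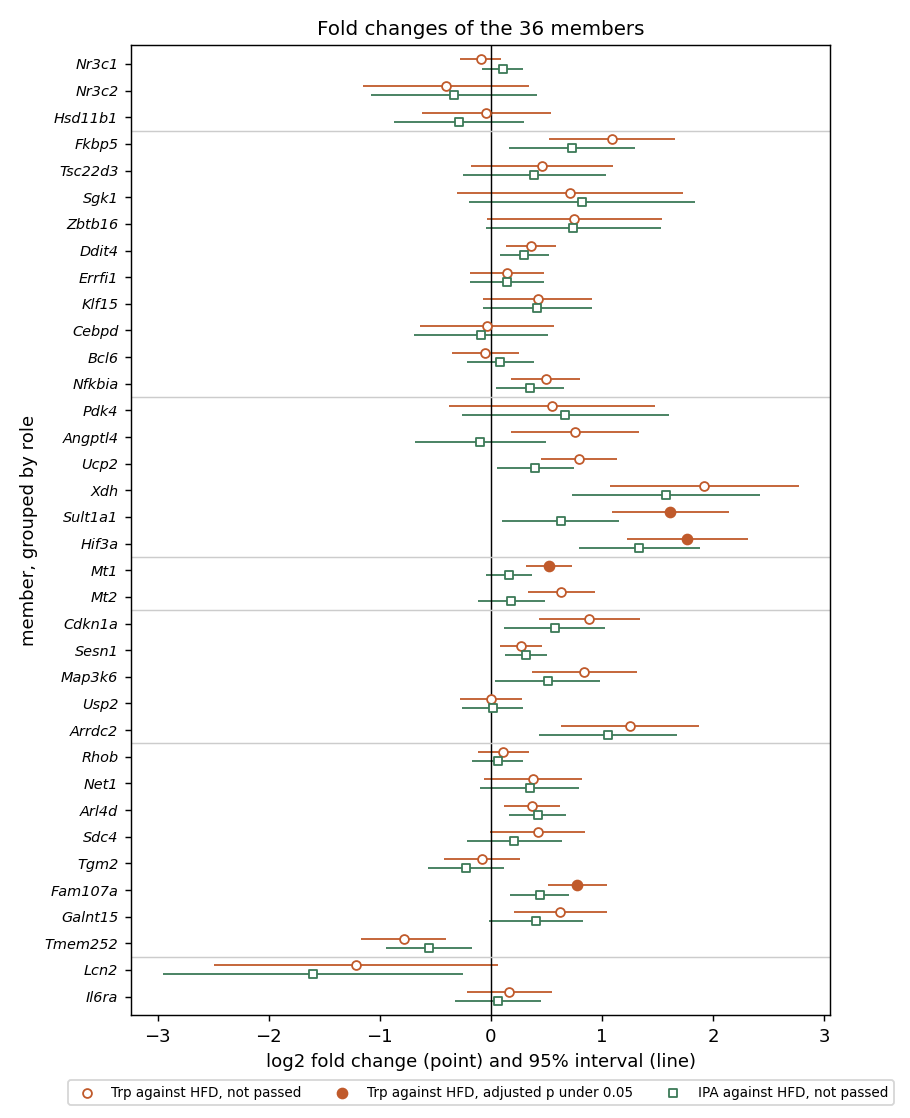
Each member's log2 fold change (x axis) in Trp against HFD (circles) and IPA against HFD (squares), with 95% intervals of the edgeR fit as lines and members grouped by role down the page. The 4 filled circles are Sult1a1, Hif3a, Mt1 and Fam107a, which passed at an adjusted p under 0.05; no square is filled.

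For the receptors and the hormone-activating enzyme no difference passed in any comparison. The shares of all genes that passed were 0.342% in Trp against HFD, 0.00535% in IPA against HFD and 0% in Trp against IPA. A list this short without a call thus says little. Nr3c1, the glucocorticoid receptor, stood at 96.5, 94.2 and 85.1 CPM in Trp 1 to 3, and 111, 99.3 and 106 CPM in IPA 1 to 3. Nr3c1 gave 92.98, 95.8 and 105 CPM in HFD 1 to 3. All Trp libraries lay below all IPA libraries and they overlapped with HFD (log2 fold change -0.09, SE 0.09, adjusted p = 0.756 in Trp against HFD; log2 fold change 0.11, adjusted p = 0.697 in IPA against HFD). The 95% interval of the Trp against HFD difference, -0.27 to 0.10 on the log2 scale, was among the narrowest of the members. Nr3c2, the mineralocorticoid receptor, which binds corticosterone more tightly, had 52.5, 33.3 and 26.2 CPM in Trp 1 to 3, and 42.6, 40.1 and 34.8 CPM in IPA 1 to 3. Nr3c2 gave 44.4, 33.7 and 69.9 CPM in HFD 1 to 3. Its groups overlapped, with HFD 3 highest and Trp 3 lowest of all 9 (log2 fold change -0.40, SE 0.32, adjusted p = 0.717 in Trp against HFD; log2 fold change -0.33, adjusted p = 0.76 in IPA against HFD). Hsd11b1, the enzyme that regenerates active corticosterone from its inert form, had 20.03, 14.2 and 16.5 CPM in Trp 1 to 3, and 12.99, 13.98 and 15.7 CPM in IPA 1 to 3. Hsd11b1 gave 14.3, 12.1 and 25.9 CPM in HFD 1 to 3. HFD 3 was the highest library, and the groups overlapped (log2 fold change -0.04, SE 0.26, adjusted p = 0.977 in Trp against HFD; log2 fold change -0.29, adjusted p = 0.736 in IPA against HFD).

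The classical direct targets are the genes most often read as a sign of receptor activity. In Trp and IPA against HFD 0 of these 10 passed, where 0.342% and 0.00535% of all genes did, so this count says little. Log2 fold changes were above 0 for 8 of 10 in Trp against HFD (median 0.44) and 9 of 10 in IPA against HFD (median 0.37). Of all genes 49.5% and 48.9% were above 0. Fkbp5, which encodes FKBP51, a chaperone partner that lowers the receptor's affinity for hormone, stood at 86.8, 82.6 and 42.3 CPM in Trp 1 to 3, and 54.7, 63.8 and 45.9 CPM in IPA 1 to 3. Fkbp5 gave 32.1, 32.3 and 34.9 CPM in HFD 1 to 3. The HFD libraries were tight and every Trp and IPA library was above them, and Trp 3 was below the IPA libraries (log2 fold change 1.09, SE 0.25, adjusted p = 0.164 in Trp against HFD; log2 fold change 0.73, SE 0.25, adjusted p = 0.393 in IPA against HFD). Without Trp 3 it passed in Trp against HFD (log2 fold change 1.36, adjusted p = 0.00271), and it also passed in DESeq2. Tsc22d3, which encodes the anti-inflammatory leucine zipper protein GILZ, had 175, 152 and 132 CPM in Trp 1 to 3, and 171, 142 and 124 CPM in IPA 1 to 3. Tsc22d3 gave 69.8, 105 and 158 CPM in HFD 1 to 3. The HFD libraries spread widely, HFD 3 reached into both other groups, and neither difference passed (log2 fold change 0.46, SE 0.28, adjusted p = 0.6 in Trp against HFD; log2 fold change 0.39, adjusted p = 0.659 in IPA against HFD). Sgk1, the serum- and glucocorticoid-regulated kinase whose promoter holds the full element shown above, had 204, 169 and 134 CPM in Trp 1 to 3, and 207, 179 and 159 CPM in IPA 1 to 3. Sgk1 gave 45.9, 102 and 162 CPM in HFD 1 to 3. The low HFD 1 and the high HFD 3 gave a coefficient of variation of 56.1% within HFD. Both other groups overlapped with HFD, and neither difference passed (log2 fold change 0.71, SE 0.43, adjusted p = 0.604 in Trp against HFD; log2 fold change 0.82, SE 0.43, adjusted p = 0.556 in IPA against HFD). Zbtb16, which encodes the transcriptional repressor PLZF, had 24.4, 17.9 and 8.53 CPM in Trp 1 to 3, and 14.96, 17.9 and 17.7 CPM in IPA 1 to 3. Zbtb16 gave 9.31, 8.31 and 12.6 CPM in HFD 1 to 3. Trp 1 was the highest of all libraries and Trp 3 nearly the lowest, so Trp and HFD overlapped, while every IPA library was above every HFD library (log2 fold change 0.75, SE 0.34, adjusted p = 0.467 in Trp against HFD; log2 fold change 0.74, adjusted p = 0.5 in IPA against HFD). Without Trp 3 it passed in Trp against HFD (log2 fold change 1.07, adjusted p = 0.0382). Trp 3 lay inside the HFD range, so leaving it out removes the overlap and this call is not separate support.

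Ddit4, an inhibitor of the growth kinase complex mTORC1, was even within the treated groups, at 49.3, 51.3 and 46.9 CPM in Trp 1 to 3, and 47.1, 47.1 and 47.2 CPM in IPA 1 to 3. Ddit4 gave 33.3, 37.3 and 44.2 CPM in HFD 1 to 3. Every Trp and IPA library lay above every HFD library, by a small amount that did not pass (log2 fold change 0.36, SE 0.10, adjusted p = 0.216 in Trp against HFD; log2 fold change 0.30, adjusted p = 0.367 in IPA against HFD). Nfkbia, the NF-kappaB inhibitor, averaged 18.1 ± 2.06 CPM in Trp, 16.4 ± 1.66 CPM in IPA and 12.8 ± 2.31 CPM in HFD (SD, n = 3 each), and its Trp libraries were all above its HFD libraries (log2 fold change 0.49, adjusted p = 0.221 in Trp against HFD). Both Ddit4 and Nfkbia passed in Trp against HFD without HFD 3 (adjusted p = 0.0197 and 0.0338). Klf15, a transcription factor of amino acid and lipid use, averaged 25.1 ± 5.67 CPM in Trp, 25.01 ± 4.91 CPM in IPA and 18.7 ± 4.75 CPM in HFD, with HFD 3 inside the range of both other groups (log2 fold change 0.42, adjusted p = 0.521 in Trp against HFD). Errfi1, a feedback inhibitor of the EGF receptor, Cebpd, a transcription factor of acute responses, and Bcl6, a transcriptional repressor, had log2 fold changes of 0.14, -0.03 and -0.05 in Trp against HFD, with HFD 3 among the highest libraries for each.

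**Figure D2:**
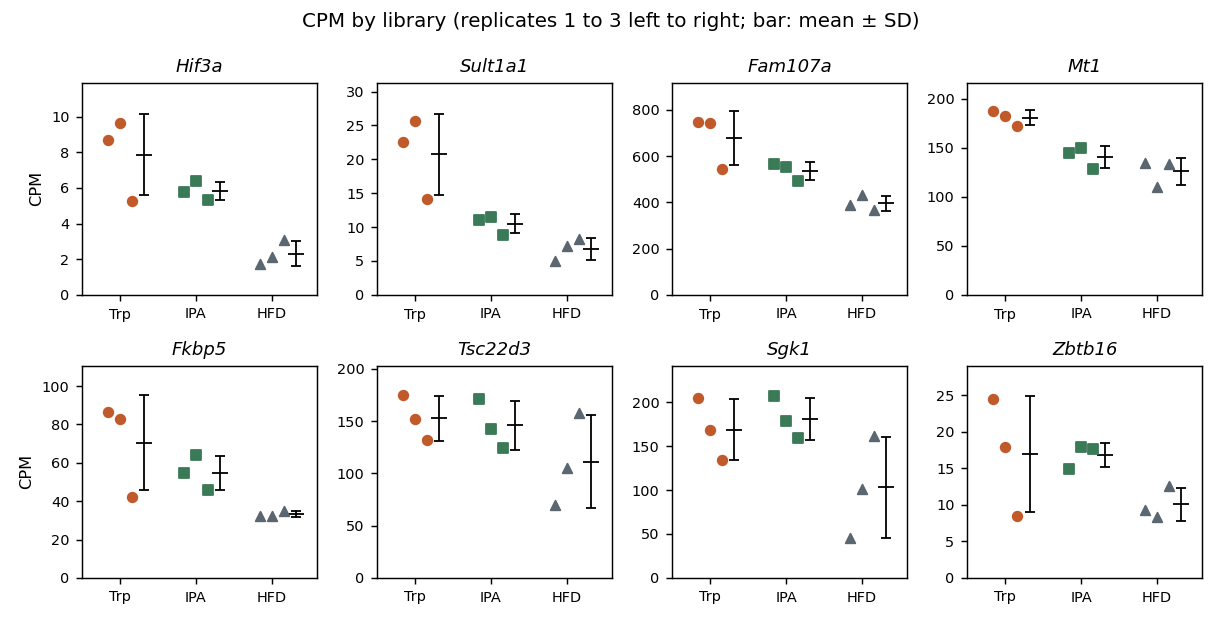
CPM (y axis, from 0) of the 4 members that passed in Trp against HFD (top row) and of 4 classical targets (bottom row) in each library, replicates 1 to 3 from left to right, with bars for mean ± SD of 3. In the top row no Trp library falls below the highest HFD library; in the bottom row Tsc22d3 and Sgk1 spread from low HFD 1 to high HFD 3, and Trp 3 is the lowest Trp library in all 8 panels.

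Fuel use and metabolism held 2 of the 4 members that passed, and all 6 of its genes had log2 fold changes above 0 in Trp against HFD (median log2 fold change 1.20). Among all genes 0.342% passed and 49.5% were above 0. Hif3a encodes a hypoxia-inducible factor subunit, some forms of which restrain the other subunits. It stood at 8.67, 9.62 and 5.28 CPM in Trp 1 to 3, and 5.78, 6.36 and 5.32 CPM in IPA 1 to 3. Hif3a gave 1.73, 2.099 and 3.09 CPM in HFD 1 to 3. The HFD libraries were all lowest and Trp 1 and Trp 2 highest, with Trp 3 just below the IPA libraries. It rose in Trp against HFD (log2 fold change 1.77, SE 0.25, adjusted p = 0.012, unadjusted p = 1.16e-05), and it did not pass in IPA against HFD (log2 fold change 1.34, SE 0.25, adjusted p = 0.142). The call ended without HFD 2 (adjusted p = 0.0591), Trp 1 (0.05) or Trp 2 (0.0743). Sult1a1, a sulfotransferase that inactivates phenols and catecholamines and the gene of the first promoter above, had 22.5, 25.6 and 14.1 CPM in Trp 1 to 3, and 11.01, 11.5 and 8.89 CPM in IPA 1 to 3. Sult1a1 gave 4.92, 7.18 and 8.22 CPM in HFD 1 to 3. Every Trp library was above every IPA library, and every IPA library above every HFD library. It rose in Trp against HFD (log2 fold change 1.61, SE 0.24, adjusted p = 0.0225), and its Trp against IPA difference was the largest among the members (log2 fold change 0.98, SE 0.23, adjusted p = 0.987, unadjusted p = 0.00156). Without HFD 3 and Trp 3, Sult1a1 passed in Trp against IPA (log2 fold change 1.20, adjusted p = 0.042). Trp 3 was its lowest Trp library, so that call is not separate support. Its call in Trp against HFD ended without HFD 1, HFD 2, IPA 1, IPA 2, Trp 1 or Trp 2 (adjusted p = 0.0565, 0.0806, 0.0511, 0.0566, 0.0905 and 0.0773).

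Xdh, the enzyme that forms uric acid at the end of purine breakdown, had the largest fold change of the members in Trp against HFD, at 15.2, 16.9 and 6.85 CPM in Trp 1 to 3, and 9.06, 13.9 and 7.71 CPM in IPA 1 to 3. Xdh gave 2.505, 4.16 and 3.61 CPM in HFD 1 to 3. Every HFD library was below every other library, but Trp 3 was below the IPA libraries, and the difference did not pass (log2 fold change 1.92, SE 0.37, adjusted p = 0.103 in Trp against HFD; log2 fold change 1.58, SE 0.37, adjusted p = 0.28 in IPA against HFD). Without Trp 3 it passed in Trp against HFD (log2 fold change 2.23, adjusted p = 0.00668). Xdh also passed there in DESeq2 (adjusted p = 2.39e-07) and in limma-trend on log2 FPKM (0.0244 to 0.0407), so its call depends on the method. Ucp2, a carrier of the inner mitochondrial membrane that shifts cells toward fat and glutamine use, had 40.1, 39.1 and 29.2 CPM in Trp 1 to 3, and 26.1, 30.8 and 25.9 CPM in IPA 1 to 3. Ucp2 gave 19.2, 17.7 and 25.8 CPM in HFD 1 to 3. Its Trp and HFD libraries did not overlap (log2 fold change 0.79, SE 0.16, adjusted p = 0.0664 in Trp against HFD; log2 fold change 0.40, adjusted p = 0.431 in IPA against HFD), and it passed without HFD 3 (adjusted p = 0.00373) or without Trp 3 (0.0304). Angptl4, an inhibitor of lipoprotein lipase, had 5.63, 5.46 and 3.69 CPM in Trp 1 to 3, and 3.43, 2.83 and 1.94 CPM in IPA 1 to 3. Angptl4 gave 2.16, 2.704 and 3.895 CPM in HFD 1 to 3. It was one of the members with all Trp libraries above all IPA libraries, while IPA and HFD overlapped (log2 fold change 0.76, adjusted p = 0.309 in Trp against HFD; log2 fold change -0.09, adjusted p = 0.935 in IPA against HFD; log2 fold change 0.85, SE 0.27, adjusted p = 0.987 in Trp against IPA). Pdk4, the kinase that shuts the pyruvate dehydrogenase complex, averaged 13.03 ± 6.89 CPM in Trp, 14.1 ± 3.27 CPM in IPA and 8.897 ± 2.198 CPM in HFD (SD, n = 3 each), and Trp 3 at 6.49 CPM was about as low as HFD 1 at 6.36 CPM.

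The metallothioneins bind zinc and copper and are induced both by glucocorticoids and by metals. Mt1 was the most abundant member per length, with a mean of 244 FPKM over all 9 libraries, and stood at 187, 183 and 173 CPM in Trp 1 to 3, and 144, 149.7 and 128 CPM in IPA 1 to 3. Mt1 gave 134, 110.3 and 133 CPM in HFD 1 to 3. Every Trp library was above every IPA and every HFD library, while IPA and HFD overlapped. It rose in Trp against HFD (log2 fold change 0.52, SE 0.10, adjusted p = 0.0415), with a smaller value in IPA against HFD (log2 fold change 0.16, adjusted p = 0.575) and in Trp against IPA (log2 fold change 0.36, adjusted p = 0.987). The Mt1 call was lost when any 1 library except HFD 3 was left out (adjusted p = 0.0561 without Trp 3 to 0.25 without Trp 2). Mt2, whose exons overlap the antisense gene Gm45774 over 73.5% of their bases so that unstranded reads of the pair cannot be told apart, had 114, 109.5 and 97.2 CPM in Trp 1 to 3, and 84.03, 80.2 and 70.8 CPM in IPA 1 to 3. Mt2 gave 67.5, 54.8 and 84.4 CPM in HFD 1 to 3. Its Trp libraries were above all others as well (log2 fold change 0.63, SE 0.14, adjusted p = 0.0965 in Trp against HFD; log2 fold change 0.19, adjusted p = 0.668 in IPA against HFD), and it passed in Trp against HFD without HFD 3 (adjusted p = 0.00286). Of 6 other genes of metal handling 0 passed in Trp against HFD, where 0.342% of all genes did. Mt3, the brain metallothionein of neurons and astrocytes, had a log2 fold change of -0.09 in Trp against HFD, and Slc30a1, a zinc exporter that MTF1 induces, had -0.30 (adjusted p = 0.219).

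Genes of the cell cycle, stress kinases and protein turnover had log2 fold changes above 0 for 4 of 5 members in Trp against HFD, and 0 passed. Among all genes 49.5% were above 0 and 0.342% passed. Cdkn1a, the cyclin-dependent kinase inhibitor p21, had 41.5, 46.7 and 28.1 CPM in Trp 1 to 3, and 27.2, 37.9 and 28.5 CPM in IPA 1 to 3. Cdkn1a gave 22.8, 23.3 and 16.8 CPM in HFD 1 to 3. HFD was below both other groups in every library (log2 fold change 0.89, SE 0.20, adjusted p = 0.144 in Trp against HFD; log2 fold change 0.57, adjusted p = 0.397 in IPA against HFD), and it passed in Trp against HFD without Trp 3 (adjusted p = 0.0268). Arrdc2, an arrestin-domain adaptor for the removal of membrane proteins, had 27.1, 22.1 and 17.1 CPM in Trp 1 to 3, and 22.5, 20.5 and 14.8 CPM in IPA 1 to 3. Arrdc2 gave 6.08, 9.18 and 12.6 CPM in HFD 1 to 3. It showed the same separation, with HFD 1 lowest and Trp 1 highest (log2 fold change 1.25, SE 0.27, adjusted p = 0.139 in Trp against HFD; log2 fold change 1.06, SE 0.27, adjusted p = 0.31 in IPA against HFD), and passed without HFD 3 in Trp against HFD (log2 fold change 1.53, adjusted p = 0.0323). Sesn1, a sestrin that restrains mTORC1 when amino acids are scarce, had 75.8, 70.7 and 61.3 CPM in Trp 1 to 3, and 70.7, 71.03 and 72.1 CPM in IPA 1 to 3. Sesn1 gave 56.02, 58.8 and 57.1 CPM in HFD 1 to 3. The HFD and IPA libraries were each tight and did not overlap (log2 fold change 0.27, adjusted p = 0.265 in Trp against HFD; log2 fold change 0.32, SE 0.09, adjusted p = 0.296 in IPA against HFD). Map3k6, a kinase of the stress-activated cascade, had 5.47, 5.91 and 3.55 CPM in Trp 1 to 3, and 3.58, 4.59 and 3.69 CPM in IPA 1 to 3. Map3k6 gave 2.74, 2.38 and 3.21 CPM in HFD 1 to 3. Every HFD library was below every other library (log2 fold change 0.84, adjusted p = 0.164 in Trp against HFD; log2 fold change 0.51, adjusted p = 0.463 in IPA against HFD). Usp2, a deubiquitinating enzyme with a daily rhythm, had overlapping groups and a log2 fold change of -0.0002 in Trp against HFD (95% interval -0.28 to 0.28).

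Among the 8 members of the cytoskeleton, matrix and membrane, Fam107a passed. Fam107a, an actin-bundling protein known as DRR1 that rises in mouse hippocampus with stress and glucocorticoids, was next to Mt1 and close to Mt2 in level per length (151 FPKM over all libraries, against 150.5 FPKM for Mt2). It had 748, 741 and 545 CPM in Trp 1 to 3, and 565, 553 and 490.4 CPM in IPA 1 to 3. Fam107a gave 389, 431 and 367 CPM in HFD 1 to 3. Trp 1 and Trp 2 were highest, Trp 3 was level with IPA, and every HFD library was below every other library. It rose in Trp against HFD (log2 fold change 0.78, SE 0.12, adjusted p = 0.0207) and did not pass in IPA against HFD (log2 fold change 0.44, adjusted p = 0.296). The call ended without HFD 1 (adjusted p = 0.0891), IPA 2 (0.0562), Trp 1 (0.0907) or Trp 2 (0.147). Arl4d, a small GTPase that recruits actin regulators to the membrane, had 33.4, 33.02 and 27.7 CPM in Trp 1 to 3, and 28.7, 36.3 and 32.4 CPM in IPA 1 to 3. Arl4d gave 22.8, 26.9 and 22.99 CPM in HFD 1 to 3. HFD was lowest in all libraries (log2 fold change 0.42, SE 0.12, adjusted p = 0.296 in IPA against HFD; log2 fold change 0.37, adjusted p = 0.255 in Trp against HFD). Tmem252, a membrane protein whose promoter also holds a near match, ran the other way, at 2.12, 2.44 and 1.92 CPM in Trp 1 to 3, and 2.703, 2.59 and 2.29 CPM in IPA 1 to 3. Tmem252 gave 3.73, 3.87 and 3.56 CPM in HFD 1 to 3. Every Trp and IPA library was below every HFD library (log2 fold change -0.79, SE 0.18, adjusted p = 0.107 in Trp against HFD; log2 fold change -0.56, adjusted p = 0.345 in IPA against HFD), and it passed in Trp against HFD in DESeq2 (adjusted p = 0.0102).

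The other members of this role did not pass in the main fit. Galnt15, an enzyme that starts mucin-type sugar chains, averaged 7.298 ± 0.966 CPM in Trp, 6.27 ± 0.831 CPM in IPA and 4.73 ± 1.13 CPM in HFD (SD, n = 3 each; log2 fold change 0.62, adjusted p = 0.247 in Trp against HFD). Every Trp and IPA library of Galnt15 lay above every HFD library. Sdc4, a heparan sulfate proteoglycan of astrocytes and vessels, averaged 90.9 ± 9.76 CPM in Trp, 78.4 ± 14.9 CPM in IPA and 67.9 ± 18.7 CPM in HFD, with HFD 3 at 89.4 CPM inside the Trp range, and without HFD 3 it passed in Trp against HFD (adjusted p = 0.0373). Net1, an exchange factor for RhoA, averaged 34.9 ± 9.43 CPM in Trp, 34.1 ± 0.937 CPM in IPA and 26.8 ± 5.92 CPM in HFD, with Trp 3 at 25.1 CPM below HFD 2. Rhob, a small GTPase of endosomes, and Tgm2, a protein cross-linking enzyme, had log2 fold changes of 0.11 and -0.08 in Trp against HFD and overlapping groups. Lcn2, an iron-carrier protein of inflammation and the least abundant member per length (0.152 FPKM), gave 5, 11 and 5 reads in Trp, 5, 7 and 2 reads in IPA, and 13, 12 and 23 reads in HFD. It was in the tests through the HFD group, where it is high, and its fold change in Trp against HFD (log2 fold change -1.22, adjusted p = 0.47) rests on these counts. Il6ra, the ligand-binding chain of the interleukin-6 receptor, had overlapping groups and a log2 fold change of 0.17 in Trp against HFD (95% interval -0.22 to 0.55).

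The members' levels also differed between libraries of a group. Of the 36 members, 18 had their highest CPM of all 9 libraries in Trp 1, 7 in Trp 2, 0 in Trp 3, 3 in IPA 1, 1 in IPA 2, 0 in IPA 3, 0 in HFD 1, 1 in HFD 2 and 6 in HFD 3. The lowest CPM was in HFD 1 for 18 members, in HFD 2 for 6, in Trp 3 for 5 and in IPA 3 for 4. The median over members of the log2 deviation from the mean of 9 libraries was 0.39, 0.23 and -0.07 in Trp 1 to 3, with 0.09, 0.11 and -0.08 in IPA 1 to 3. The same median was -0.42, -0.30 and 0.0005 in HFD 1 to 3. Trp 3, the lowest of its group, and HFD 3, the highest of its group, thus lay close to IPA 3. In these libraries the choroid plexus markers summed to 1452, 623 and 41.4 CPM in Trp 1 to 3, with 313, 1224 and 846 CPM in IPA 1 to 3. The same sum was 224, 142 and 733 CPM in HFD 1 to 3. The part of choroid plexus RNA in the members' values was not tested.

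**Figure D3:**
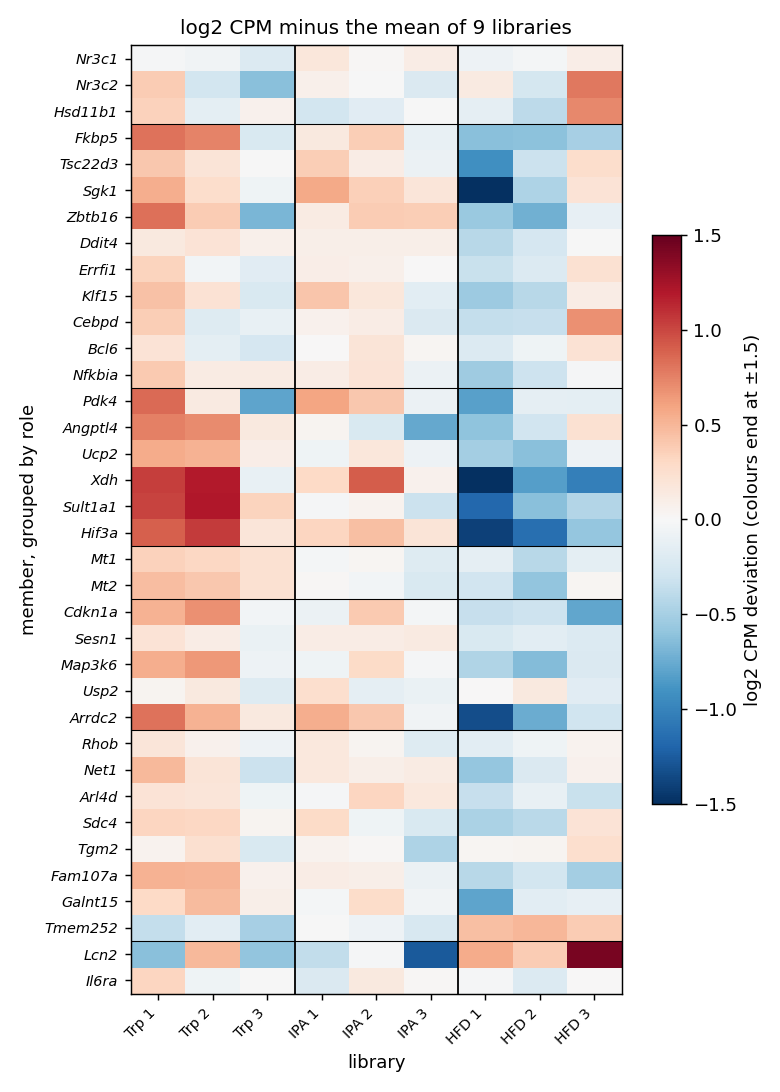
Heat map of each member's log2 CPM in each library minus its mean over the 9 libraries (colour, ending at ±1.5, which 2 values pass), with members grouped by role down the page and libraries across. Trp 1 and Trp 2 are red and HFD 1 and HFD 2 blue for most members, while Trp 3 and HFD 3 are pale or mixed.

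Other glucocorticoid-induced genes outside the members were also higher in part. Of 25 listed genes, 24 were tested, and 4 rose in Trp against HFD and 0 fell, where 0.342% of all genes passed. Log2 fold changes were above 0 for 18 and below for 6, against 49.5% of all genes above 0. The list was chosen with earlier results of these data known, so these counts are a description and not separate support. Mfsd2a, which carries lysolipids across brain endothelium, rose (log2 fold change 1.05, adjusted p = 0.00568), as did Edn1, the vasoconstrictor endothelin-1 (log2 fold change 1.83, adjusted p = 0.00568). Mertk, a receptor for the engulfment of dying cells and membrane, rose as well (log2 fold change 0.87, SE 0.11, adjusted p = 0.00568), and so did Pla2g3, a secreted phospholipase (log2 fold change 1.61, SE 0.28, adjusted p = 0.0298). Mertk stood at 37.2, 38.1 and 30.03 CPM in Trp 1 to 3, and 28.1, 30.4 and 27.5 CPM in IPA 1 to 3. Mertk gave 18.3, 20.7 and 18.4 CPM in HFD 1 to 3, with every HFD library below all others. Mfsd2a, Edn1 and Mertk passed with any 1 of the 9 libraries left out, but with only the 6 Trp and HFD libraries the Mfsd2a and Mertk calls were lost (adjusted p = 0.0546 each). Pla2g3 had 5.12, 5.84 and 3.104 CPM in Trp 1 to 3, and 2.65, 2.64 and 2.13 CPM in IPA 1 to 3. Pla2g3 gave 1.199, 1.27 and 2.14 CPM in HFD 1 to 3, and the call was lost without HFD 1, HFD 2, IPA 1, IPA 2, IPA 3, Trp 1 or Trp 2 (adjusted p = 0.15, 0.117, 0.0622, 0.0748, 0.059, 0.109 and 0.208). Plin4, Per1, Dusp1 and Cxxc5 are named after their values were seen. The widest difference was that of Plin4, a coat protein of lipid droplets, at 54.8, 55.5 and 17.98 CPM in Trp 1 to 3, and 26.9, 22.5 and 14.5 CPM in IPA 1 to 3. Plin4 gave 0.728, 0.888 and 2.64 CPM in HFD 1 to 3. Every HFD library was far below every other library, and neither difference passed (log2 fold change 4.94, SE 0.70, adjusted p = 0.0638 in Trp against HFD; log2 fold change 3.93, SE 0.68, adjusted p = 0.204 in IPA against HFD). It passed in Trp against HFD without HFD 3 (adjusted p = 0.0438) or Trp 3 (0.0268). Plin4 also passed there in DESeq2 (adjusted p = 5.95e-11) and in limma-trend on log2 FPKM (0.00514 to 0.0199), so its call depends on the method. Per1 and Dusp1, early targets that neuronal activity also induces, had log2 fold changes of -0.33 and -0.42 in Trp against HFD, and Cxxc5, a zinc-finger regulator, had -0.49 (adjusted p = 0.0559). In IPA against HFD 0 of the 24 passed, where 0.00535% of all genes did.

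**Figure D4:**
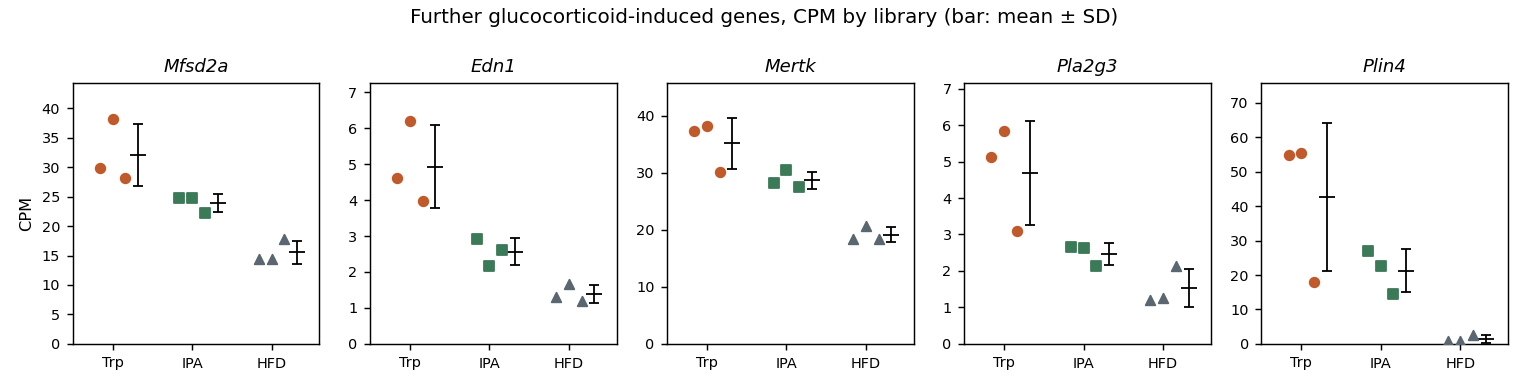
CPM (y axis, from 0) of 5 glucocorticoid-induced genes outside the members in each library, with bars for mean ± SD of 3. All Trp libraries are above all HFD libraries in the 5 panels, and Plin4 is at 17.98 to 55.5 CPM in Trp, against 0.728 to 2.64 CPM in HFD.

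Of the receptor's partners and the genes it represses, 0 passed in Trp or IPA against HFD. The shares of all genes that passed there were 0.342% and 0.00535%, so a count of 0 in such short lists says little. Of 21 chaperones and coregulators, 20 were tested and 0 passed in Trp or IPA against HFD; the median log2 fold change in Trp against HFD was 0.039. Stip1, the co-chaperone that links HSP70 to HSP90, had 0.36 (adjusted p = 0.218), and Crebbp, a histone acetyltransferase, had -0.23. Of 13 repressed or stress-hormone genes, 9 were tested and 0 passed, with 7 of 9 log2 fold changes below 0 in each comparison with HFD (medians -0.28 in Trp and -0.22 in IPA). Icam1, an adhesion molecule of inflamed vessels, had a log2 fold change of -0.64 and Crhr1, the receptor for corticotropin-releasing hormone, -0.55 in Trp against HFD, and Pomc, the precursor of corticotropin, had -1.57 (adjusted p = 0.173) in IPA against HFD. Among 15 clock genes, which glucocorticoids also set, Nr1d1, the repressor REV-ERBα, fell in Trp against HFD (log2 fold change -0.61, adjusted p = 0.0378). Leaving out Trp 1, Trp 2, HFD 1, HFD 2 or any IPA library ended this call (adjusted p = 0.0511 to 0.25). Dbp, an output gene of the clock, had -0.47 (adjusted p = 0.173). The remaining genes with the smallest p of their list did not pass either. In IPA against HFD these were Bag1, a co-chaperone of HSP70, with a log2 fold change of -0.20 (adjusted p = 0.476), Cry1, a clock repressor, with 0.76 (adjusted p = 0.286), and Ier2, an immediate early gene, with -1.16 (adjusted p = 0.332). In Trp against IPA the log2 fold change was -0.28 for Ncoa2, a receptor coactivator, 0.29 for Abcb1a, an efflux pump that carries steroids, and 1.54 for Il1b, an inflammatory cytokine. The Il1b value rests on few reads, 30, 14 and 22 in Trp 1 to 3 and 7, 5 and 7 in IPA 1 to 3. The log2 fold change was 0.44 for Crhbp, a binding protein of corticotropin-releasing hormone, -0.24 for Slc30a10, a manganese exporter, and -0.15 for the zinc sensor Mtf1. It was -0.32 for Per2 and -0.12 for Clock, both clock genes, and -0.49 for the immediate early gene Fosb. All 9 had an adjusted p of 0.987.

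Several other groups of genes differed from HFD in sign or level in the same libraries, some with overlapping groups. In Trp and IPA against HFD, 49.5% and 48.9% of all genes had log2 fold changes above 0, and 0.342% and 0.00535% passed. All Trp and all IPA libraries lay below all HFD libraries for 7.43% and 8.01% of all genes. Genes of the same list can shift together, so counts within a list are not counts of independent genes. All 12 immediate early genes, which neuronal activity switches on, had log2 fold changes below 0 in Trp against HFD (median -0.90), and Fos and Egr1 fell (log2 fold change -1.56, adjusted p = 0.0207 and log2 fold change -0.84, adjusted p = 0.0415). The Fos call was lost without Trp 1 (adjusted p = 0.101), Trp 2 (0.126), HFD 1 (0.0559) or HFD 2 (0.0591). Egr1 did not pass with any 1 of the libraries except HFD 3 left out (adjusted p = 0.0609 to 0.2). In IPA against HFD all 12 were below 0 as well (median -0.75), and 0 passed. All 10 microglia markers had log2 fold changes above 0 in Trp against HFD, 4 passed, Ctss, C1qa and C1qb among them, and their summed level was 365 to 469 CPM in Trp, 262 to 279.9 CPM in IPA and 242 to 264 CPM in HFD. That sum was highest in Trp 3. The C1qa call was lost without Trp 2, IPA 2, HFD 1 or HFD 2 (adjusted p = 0.0548 to 0.0743). The C1qb call was lost without Trp 2 or HFD 2 (0.0755 and 0.0608). Endothelial markers summed to 257 to 303 CPM in Trp, 249.1 to 260.2 CPM in IPA and 289 to 341 CPM in HFD. Astrocyte markers summed to 4135 to 4391 CPM in Trp, 3964 to 4572 CPM in IPA and 4216 to 4497 CPM in HFD, and mural and meningeal markers to 154 to 199 CPM in Trp, 132 to 168 CPM in IPA and 152 to 259.8 CPM in HFD. All 5 tested blood markers had every Trp and every IPA library below every HFD library (median log2 fold change -1.89 in each comparison with HFD), and 0 passed. All 10 choroid plexus markers had log2 fold changes above 0 in Trp and in IPA against HFD (medians 0.78 and 0.96), as did all 10 striatal markers (0.42 and 0.73), and 0 passed. The choroid plexus sums overlapped between groups, at 41.4 to 1452 CPM in Trp, 313 to 1224 CPM in IPA and 142 to 733 CPM in HFD. So did the striatal sums, at 1693 to 2421 CPM in Trp, 2392 to 3228 CPM in IPA and 735 to 2417 CPM in HFD. All markers of these lists were above 0 in every library, except 2 of 7 blood markers with a 0 in some library. The part of cell composition and of neuronal activity in the members' values was not tested.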

How the data were processed

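Polyadenylated RNA of 9 tissue samples was copied with random hexamers, per the labels' protocols, with no strand marking described. Per the submitters' processing notes StringTie 2.1.3b and the mouse build mm10 were used. For the aligner, counter, annotation and strand setting the sources used here give no name. The authors deposited 1 table with whole-number counts per gene and library and, per the file headers, FPKM of the same libraries. All library columns were paired with samples by the names in the labels, and 0 were left over. The coordinates in the table differ from those of the reference build, so coordinates printed are those of RefSeq GRCm38.p6.

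The members and all gene lists were chosen with earlier results of these data known. The deposited counts were analysed with edgeR 4.0.16 in R 4.3.3: filterByExpr with a minimum count of 10, TMM scaling, and a robust quasi-likelihood fit of 1 mean per group to all 9 libraries, with no covariate. Tests were two-sided, and a gene passed if its p, adjusted over 18690 genes by the Benjamini-Hochberg method, was under 0.05. Each standard error is the log2 fold change divided by the root of its F statistic. With 3 against 3 libraries the smallest exact permutation p is 0.1, so none was used. Each p-value of the main fit sets a difference in group means against the spread within groups, estimated over all 9 libraries.

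Values by library are given for members that passed, for the 6 further members with the smallest p in each comparison, and for Fkbp5, Tsc22d3, Sgk1, Zbtb16, Nr3c1, Nr3c2, Hsd11b1, Mt1 and Mt2. From each pathway list, genes that passed and the 2 with the smallest p per comparison are named. Exon overlaps were read from a GENCODE annotation. Besides Mt2, the largest shares of exon bases shared with a gene on the opposite strand or nearby were 15% in Cebpd and 13.7% in Tgm2. The alternatives were DESeq2 1.42.0, RLE and upper quartile scaling, no filter, limma-trend (limma 3.58.1) on log2(FPKM + pseudocount) for genes at or above 1 FPKM in 3 libraries or more, the 6 libraries compared alone, the replicate number as a block, each library left out, HFD 3 and Trp 3 left out, and adjusted p under 0.1. For the genes named outside the members these were added after their values were seen. The values of 1 marker gene are not reported here. The procedure was tested on simulated data. The plots were made in matplotlib 3.10.9 under Python 3.11.15.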

Additional observations from a re-analysis of the deposited data

How the results depend on the processing

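The number of members passing in Trp against HFD was 4, of 64 genes in all. It was 4 with RLE or upper quartile scaling (67 and 63 genes), 12 in DESeq2 (309 genes), 6 without a filter (97 genes) and 6 at adjusted p under 0.1 (119 genes). Besides the 4 of the main fit, DESeq2 called Fkbp5, Ucp2, Xdh, Mt2, Cdkn1a, Map3k6, Arrdc2 and, lower in Trp, Tmem252. On log2 FPKM and otherwise the number passing differed as follows. With pseudocounts of 0.5, 0.1 and 1 on log2 FPKM it was 7, 6 and 7 of 32 testable members (60, 54 and 60 genes). Hif3a, with a mean of 0.792 FPKM over all 9 libraries, was not among these 32 and was not tested on that scale. With the 6 libraries compared alone, a fit with fewer samples, it was 0 (8 genes). It ran from 0 to 10 when 1 library was left out (13 to 323 genes), and was 20 without HFD 3 and Trp 3 (775 genes). In IPA against HFD the number was 0 in edgeR, 3 in DESeq2 (168 genes), 0 to 1 with 1 library left out (0 to 52 genes) and 8 without HFD 3 and Trp 3 (247 genes). In Trp against IPA it was 0, with 1 in DESeq2 (of 15 genes), 1 without HFD 3 and Trp 3 (of 2 genes), and 0 with any 1 library left out. With the replicate number as a block, 2 members (Cdkn1a and Fam107a) passed in Trp against HFD, of 23 genes in all. Deviations of same-numbered libraries from their group means had correlations of -0.196 to 0.048 over all genes. The labels say nothing of pairing, and these correlations cannot settle whether the numbers pair the libraries. With the 6 libraries alone, the adjusted p was 0.0877 for Hif3a, 0.101 for Fam107a, 0.102 for Sult1a1, 0.129 for Mt1 and, outside the members, 0.133 for Pla2g3. It was 0.0629 for Fos, 0.14 for Egr1, 0.112 for Nr1d1, 0.101 for C1qa and 0.0708 for C1qb. Edn1 (0.0482) and Ctss (0.0432) passed in that fit. With the replicate block, Pla2g3 (0.12), Fos (0.0551), Egr1 (0.0625), Nr1d1 (0.129), C1qa (0.0541) and C1qb (0.0592) did not pass. On log2 FPKM, Nr1d1 (0.109 to 0.111) and Egr1 (0.0882 to 0.0903) did not pass. Over the alternatives the median log2 fold change of the members was 0.31 to 0.75 in Trp against HFD, 0.21 to 0.40 in IPA against HFD and 0.03 to 0.24 in Trp against IPA. No fold change with an unadjusted p under 0.05 changed sign. Of members with a larger p, 8 of 18, 8 of 21 and 16 of 29 in these comparisons changed sign under at least 1 alternative. Where a call changed, the cause was not tested. Counts limit Lcn2 most.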
